A study of Callithrix jacchus and Rattus norvegicus and Loxodonta africana with 31 samples.

Results

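Cytosolic ribosomal protein genes, with the tissue paralogues of several of them, were followed across tissues of the common marmoset (Callithrix jacchus), the rat and a wallaby. Members were autosomal rows whose name in the deposited tables was that of a large subunit protein (RPL), a small subunit protein (RPS), one of the stalk proteins RPLP0, RPLP1 and RPLP2, or RPSA. The rule found 188 of 54059 rows, of which 129 of 20486 were in rat, 52 of 13892 in wallaby and 7 of 19681 in marmoset. The 129 rat rows carried 81 symbols, 77 rows for the large and 52 for the small subunit. In rat 30 symbols had more than 1 row, and 14 rows held exactly the values of another row of their symbol, which left 120 distinct rows. Ribosomal protein genes have many near-identical copies in mammalian genomes, so the split of reads among rows of 1 symbol is uncertain, and rows of 1 symbol are not independent of each other. Another 6 rat rows matched by name but were annotated on the X chromosome and were not members. In marmoset most ribosomal protein rows had no such name in the file; 43 more autosomal rows were named through an Ensembl name table, lie outside the rule and are given only beside the 7 members.

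The series concerns the genes of the mammalian Y chromosome and their expression across tissues. It held 31 samples: 14 of marmoset, 12 of rat, 2 of wallaby and 3 of elephant fibroblasts, which were not used here. Polyadenylated RNA was sequenced and the values were deposited as FPKM, fragment counts scaled by transcript length and by library, a unit that allows genes to be compared with each other. No treatment, genotype, strain or age was given in the sources used here. In marmoset and rat, brain, heart, kidney and liver came from 1 female and 1 male each, ovary from the female and testis from males; the wallaby gave liver and testis of a male. A difference between the sexes therefore cannot be told apart from a difference between 2 animals. The brain value of each sex matched samples of both frontal cortex and cerebellum, and the marmoset testis value matched 3 samples of 2 animals. How these samples entered the value was not given, so both were treated as pooled values, with no SD. The p-values below measure only the spread between these few samples.

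The ribosome is a large ribonucleoprotein whose small subunit decodes the mRNA and whose large subunit forms peptide bonds. Each subunit carries a fixed set of proteins, usually made in equal amounts, and their mRNAs share a terminal oligopyrimidine tract at the 5′ end through which their translation is adjusted to growth and nutrient supply. A few proteins have paralogues that take the parent's place in particular tissues, such as RPL3L in heart and skeletal muscle and RPL10L and RPL39L in the male germ line.

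The number of reads behind the values is unknown, since FPKM values below 0.2 showed no steps of whole reads. Most defining markers were highest in the tissue of the label, with exceptions, some of which are given here. Marmoset CYP19A1, an ovary marker, was at 25.7 (male) and 52.8 (female) FPKM in liver against 7.20 in ovary. Rat Cyp17a1, from the list of Sertoli and Leydig markers, was at 166 and 193 in liver against 48.1 in testis and 114 in ovary. Albumin, the main secreted liver protein, was listed at 0 in all liver libraries of marmoset and rat, and marmoset SERPINA1, another secreted liver protein, was listed at 0 in male liver but at 13492 FPKM in female liver. Rat Myl7, an atrial light chain, was at only 0.278 (male) and 2.09 (female) in heart. In marmoset testis the spermatid genes TNP1 and AKAP4 were at only 0.169 and 0.408, while the germ cell helicase DDX4 was at 29.8. An exact 0 in these tables can therefore be a failed estimate, and is given below as listed at 0. The 2 rat brain values differed in their cell markers: Gabra6, a marker of cerebellar granule cells, was at 213 FPKM in the male and 26.4 in the female, and the summed glial markers were at 474 in the male and 2864 in the female. In the rat heart the summed blood and immune markers, nearly all of it haemoglobin, reached 3289 (male) and 2743 (female), against 182 to 660 in the other somatic libraries. Whether these differences bear on the ribosomal protein values was not tested. In bulk tissue a smaller number of cells of a type and less RNA per cell cannot be told apart.

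In rat, ribosomal protein rows were lowest in brain and highest in liver or heart. The median member row stood at 45.9 FPKM in male and 35.2 in female brain. It stood at 185 and 122 in heart, at 138 and 78.4 in kidney and at 203 and 165 in liver (male, then female). The median was 40.8 in testis and 150.1 in ovary, so brain and testis formed the low end, and neither brain median reached any heart, kidney or liver median. Liver was the tissue of the highest mean for 93 of the 126 rows that passed the filter on low values (at least 1 FPKM in at least 2 libraries) and heart for 33. Brain was the lowest of the 4 somatic tissues for 123 rows. These counts of highest and lowest tissues were not taken over all rows.

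**Figure D1:**
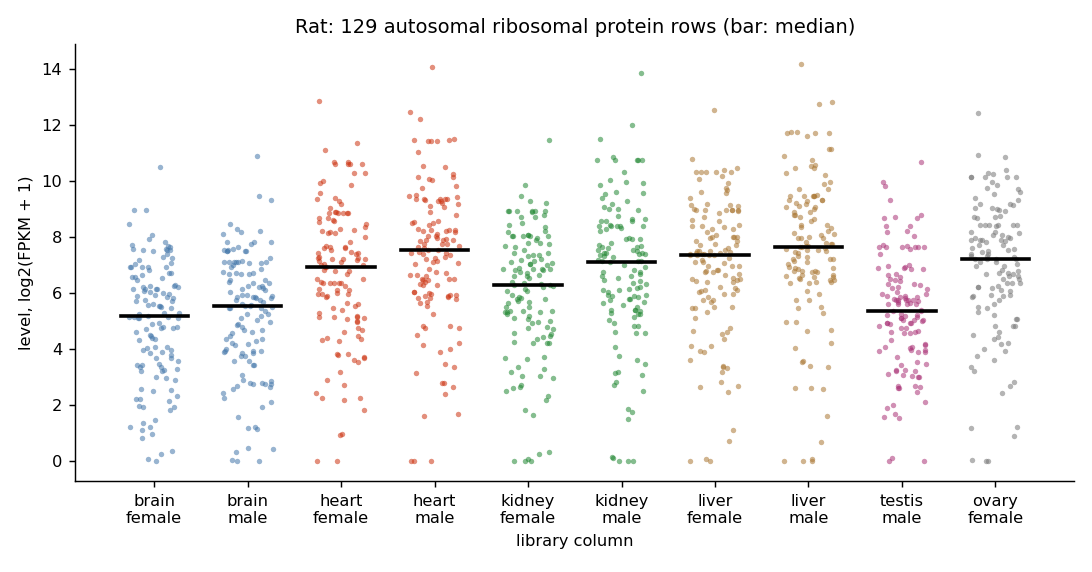
log2(FPKM + 1) on the y axis of the 129 rat ribosomal protein rows, for each of the 10 rat library columns on the x axis, with 1 point per row and a black bar at the median. The medians of the brain and testis columns lie between 35.2 and 45.9 FPKM, below the 78.4 to 203 of the other columns.

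The share of a library's summed FPKM taken by the members gave another order. It was 2.12% and 1.31% in brain, 2.25% and 1.39% in heart, 4.69% and 3.11% in kidney and 3.62% and 2.82% in liver (male, then female), and 2.58% in testis and 9.48% in ovary. With the 50 highest other rows of each library left out, the shares were 6.77% and 5.64% in brain, 16.4% and 11.4% in heart, 13.6% and 8.63% in kidney, 12.1% and 8.44% in liver, 4.06% in testis and 19.3% in ovary. Ovary was highest on both counts, while heart moved from beside brain to above it.

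Single rows differed widely in level. The highest was the RPS29 row on chromosome 3, for a small zinc-binding protein of the small subunit. Its male values were 1915 FPKM in brain, 17466 in heart, 14754 in kidney, 18714 in liver and 993 in testis. Its female values were 1475, 7389, 2866, 5963 and, in ovary, 5486. The female values were lower in all 4 shared tissues, and brain was the lowest somatic tissue in both animals. Another RPS29 row (chromosome 13) and the RPL37 row on chromosome 10 followed, with somatic means of 2733 and 2715 FPKM. At the other end, Rps21 was listed at 0 except for 0.211 in female kidney, the second RPS28 row had a somatic mean of 0.166, and Rpl39l, the germ line paralogue of Rpl39, one of 0.416. These 3 rows did not pass the filter, so 126 of the 129 rat rows were tested.

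Most rat members shared a single profile. Over the 10 columns the median correlation (Pearson's r of log2 values) of a row with the median of the members was 0.92, and 80 of 126 rows reached 0.9. These columns share animals and libraries, so the values are a description. The 4 rows under 0.5 were Rpl10l (-0.03), Rpl7l1 (0.04), Rpl3l (0.33) and the second Rpl9 row (0.49). The range of tissue means was narrowest for Rpl7l1, the paralogue of Rpl7 (0.45 on the log2 scale), the second Rpl9 row (0.61) and the second Rps7 row (1.02). It was widest for Rpl3l (8.18), Rps27l (4.16), Rps27 (3.93), the 5 RPL39 rows (about 3.51) and the second Rps24 row (3.29).

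Each somatic tissue was then compared with the mean of the other 3 on log2(FPKM + 1), with the animal as a block, by limma across all rows of a species. In rat brain 121 of 126 members were lower at an adjusted p under 0.05, where 39.1% of all 14560 tested rows were. The median difference was -1.83 for members and -0.28 for all rows. By symbol, 76 of 79 had a lower row. No member was higher, where 24.6% of all rows were. Large subunit rows (72 of 76 lower, median -1.84) and small subunit rows (49 of 50, median -1.78) did not stand apart in these counts. Among rows with a mean of at least 10 FPKM, 113 of 114 members and 59.2% of all 5479 rows were lower.

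The low values in brain held in each animal and at the level of single libraries. The difference was below 0 in both the female and the male for 124 of 126 rows. This count was not taken over all rows, whose median difference was -0.28. Each library was also centred on its median ribosomal protein row, a choice made after seeing the data. By construction this removes what the family shares, so it is no check on the low values. With it 15 of 126 members were lower and 11 higher in brain, where 7.01% of all rows were lower and 75.5% higher. Both brain values lay below every heart, kidney and liver library for 116 of 126 rows, against 22.4% of all rows.

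The deepest falls in rat brain were in Rps27l, the RPL39 rows and Rps27. Rps27l, a stress-responsive paralogue of the small subunit protein Rps27, stood at 5.78 (male) and 6.45 (female) FPKM in brain, 77.5 and 31.6 in heart, 74.3 and 83.7 in kidney and 97.0 and 164 in liver. Its log2 difference was -3.50 (SE 0.38, limma adjusted p = 0.000305). Rps27 stood at 5.79 and 8.76 in brain, 55.4 and 61.7 in heart, 23.3 and 30.9 in kidney and 147 and 103 in liver. Its difference was -2.86 (SE 0.25, adjusted p = 0.000120). No brain value of either gene overlapped any other somatic tissue. The 5 RPL39 rows, for a small basic protein of the exit tunnel, had differences of -3.09 (SE 0.41, adjusted p = 0.000740 to 0.000754); each holds the same values as at least 1 other.

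The 5 rows that did not pass in brain were Rpl3 (-0.42, adjusted p = 0.156), Rpl7l1 (-0.25, adjusted p = 0.499), the second Rpl9 row (-0.41, adjusted p = 0.194), the second Rps7 row (-0.54, adjusted p = 0.0783) and Rpl10l (-0.87, adjusted p = 0.117). Of these Rpl3 is the core large subunit protein near the peptidyl transferase centre. Its brain values of 82.4 and 73.4 FPKM lay above its heart values and below those of kidney and liver.

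In rat liver 102 of 126 members were higher, where 28.6% of all rows were, with a median difference of 1.10 for members and -0.06 for all rows. By symbol, 68 of 79 had a higher row. Among rows with a mean of at least 10 FPKM, 96 of 114 members and 44% of all rows were higher. The count was 60 of 76 for the large and 42 of 50 for the small subunit, and 123 rows were above 0 in both animals. The count in both animals was not taken over all rows, whose median difference was -0.06. Rps27 rose most (2.39, SE 0.25, adjusted p = 0.000363), followed by Rps27l (2.05, SE 0.38, adjusted p = 0.00376) and the large subunit gene Rpl35 (1.99, SE 0.27, adjusted p = 0.000989). Rpl35 stood at 852 and 385 FPKM in liver, 70.9 and 58.5 in brain, 233 and 170 in heart and 325 and 165 in kidney, so its lower liver value exceeded every other library. The 1 lower member was Rpl3l, where 33.4% of all rows were lower. The number higher in liver was 60 without the animal block (47.6% of members, 23.4% of all rows), 32 without the male liver (25.4% and 16.2%) and 35 without the female liver (27.8% and 19.0%). Without the female liver the call of Rps27l was lost (adjusted p = 0.0530).

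In rat heart 61 of 126 members were higher, where 25% of all rows were, with a median difference of 0.72 against -0.11 for all rows. By symbol, 37 of 79 had a higher row. Among rows with a mean of at least 10 FPKM, 57 of 114 members and 31.7% of all rows were higher. Rpl10l, which needed its heart values to pass the filter, is among the 61. So is Rpl3l, which passed it through its heart values alone. The largest rises after it were in Rps4x (1.81, SE 0.26, adjusted p = 0.00163), the second Rps24 row (1.81, SE 0.31, adjusted p = 0.00310) and RPS13 (1.75, SE 0.33, adjusted p = 0.00475), all of the small subunit. Rpl3 was the 1 member that fell, where 30.4% of all rows did. The number higher in heart was 28 without the animal block (22.2% of members, 21.1% of all rows) and 35 without the female liver (27.8% and 22.7%). It was 9 of 125 without the female heart (7.2% of members, 13.0% of all rows) and 11 of 125 without the male heart (8.8% and 14.3%). The members' share thus lay near that of all rows without the block and below it without either heart library. Without the male heart the Rps24 call was lost (adjusted p = 0.0528), and without the female heart that of Rpl3 was (adjusted p = 0.0679).

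Kidney had no higher member, where 16.1% of all rows were higher, and 1 lower, again Rpl3l, where 19.9% of all rows were lower. The row of Rpl3l passed the filter only through its 2 heart libraries, so its lower calls in brain, kidney and liver restate the heart values. Without either heart library it was not tested, which left 125 members.

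**Figure D2:**
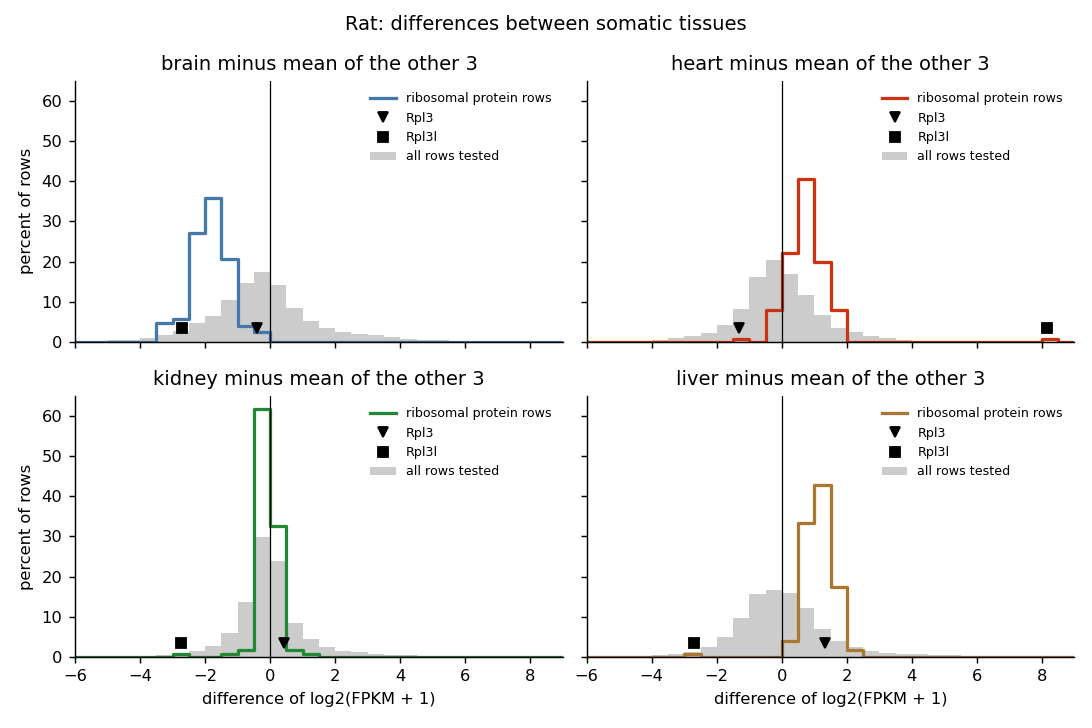
Distribution of the rat log2 differences of each somatic tissue from the mean of the other 3, for the 126 ribosomal protein rows and for all 14560 tested rows, as a percentage of rows per bin. The members' median lies at -1.83 in brain, 0.72 in heart, -0.10 in kidney and 1.10 in liver.

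Since brain was the low tissue and each comparison averages the other 3, the heart and liver counts were also taken with brain left out. Among heart, kidney and liver alone, 7 rat members were higher in heart (26.2% of all 13128 rows) and 7 lower (29.9%). Those higher included Rpl3l, Rps4x (1.34), RPS13 (1.15), the second Rps24 row (1.07), Rps13 (1.02) and the second Rpl35a row (1.00). Those lower were Rpl3 (-1.65), the third RPS28 row (-1.21), Rpl41 (-0.99), RPL12 (-0.89), Rpl35 (-0.87), RPS18 (-0.82) and Rps28 (-0.77). In kidney 52 members were then lower (41.3% of members, 21.1% of all rows) and 0 higher (16.9% of all rows), with a median of -0.74. In liver 36 were higher (28.6% of members, 26.1% of all rows) and 1 lower (27.8% of all rows), with a median of 0.60. The median of all rows in liver was -0.01. Most of the higher calls in heart thus rested on the brain values. In liver the members' share of higher calls without brain lay near that of all rows. Kidney became the lowest of the 3 remaining tissues.

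The stalk proteins Rplp0, Rplp1 and Rplp2 form the flexible arm of the large subunit that recruits elongation factors. Rplp0 stood at 122 (male) and 92.7 (female) FPKM in brain, 1134 and 585 in heart, 1006 and 269.9 in kidney and 1492 and 467 in liver. It was lower in brain (-2.72, SE 0.36, adjusted p = 0.000700) and higher in heart (1.18, adjusted p = 0.0293) and liver (1.22, adjusted p = 0.0228). Brain lay apart from every other library, and the female kidney was the lowest of the other somatic libraries. Rplp1 and Rplp2 were also lower in brain (-1.95 and -1.84) and higher in liver (1.31 and 1.37). In heart the Rplp2 row passed (0.66, adjusted p = 0.0396) and the Rplp1 row did not (0.82, adjusted p = 0.102). Both Rplp2 rows stood low for a stalk protein, at somatic means of 8.20 and 3.38 FPKM, and the split of reads among copies is uncertain for them.

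Rpsa, a small subunit protein that also serves as the laminin receptor, stood at 60.4 and 75.3 FPKM in brain, 200.5 and 294 in heart, 295 and 171 in kidney and 597 and 314 in liver. It was lower in brain (-2.07, adjusted p = 0.00248) and higher in liver (1.48, adjusted p = 0.0117), and did not pass in heart (0.37, adjusted p = 0.413). RPS27A, made as a fusion with ubiquitin, was lower in brain (-1.73) and higher in heart (0.91) and liver (1.18). None of these stalk, Rpsa or RPS27A rows passed in kidney. The heart calls of Rplp0 and RPS27A were lost without either heart library or without the female liver, and that of RPS27A without the male liver too. Their liver calls were lost without either liver library, that of Rplp0 without the male heart too, and that of Rpsa without the male liver.

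RPL3L replaces RPL3 in the ribosomes of striated muscle. In rat, Rpl3l stood at 290.5 (male) and 311 (female) FPKM in heart and at or below 0.0893 in every other column, and was listed at 0 in female kidney. Heart lay 8.17 above the mean of the other 3 somatic tissues on the log2 scale, given as a description since only the heart values brought the row into the test. Rpl3 itself was at 60.5 and 38.0 in heart, 82.4 and 73.4 in brain, 144.5 and 100.1 in kidney, 192 and 197 in liver, 22.9 in testis and 241 in ovary. Heart was the lowest somatic tissue for Rpl3 in both animals (-1.33, SE 0.23, adjusted p = 0.00335; without the female heart, -1.11 and adjusted p = 0.0679). Rpl3l thus made up 82.8% and 89.1% of the summed FPKM of the pair in heart, and at most 0.388% elsewhere.

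In marmoset RPL3L also exceeded RPL3 in heart. It was at 213 (male) and 32.8 (female) FPKM in heart, 6.07 and 0.808 in liver, 1.06 and 0.238 in kidney, 0.156 and 0.0355 in brain, 0.788 in testis and 0.0244 in ovary. Both heart values exceeded every other library, and the male heart exceeded the female one. The heart difference was 5.53 (SE 0.48, adjusted p = 0.000295). RPL3, named here through the name table, was at 11.6 and 4.33 in heart, and RPL3L made up 94.8% and 88.3% of the pair there. Other heart muscle genes also differed between the 2 marmoset animals: the atrial light chain MYL7 was at 3530 and 414, while the troponin TNNT2 was at 678 and 685.

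RPL3L is also expressed in skeletal muscle, so the markers of that tissue were read beside it. In the rat heart the 7 summed markers reached 1443 and 985 FPKM, of which Ckm, a creatine kinase also made in heart, gave 1443 and 984. Mylpf, the fast light chain of skeletal muscle, was at 0.0642 in the male and listed at 0 in the female. In the marmoset heart CKM was at 3455 and 1102, and 1 MYH4 row was listed at 0 in the male and at 1179 in the female. The other listed markers were low there (male, then female): the other MYH4 row at 0.473 and 0.640, TNNT3 at 1.75 and 1.81, and ACTN3 at 0.262 and 0.0706. The part of such cells in the RPL3L values was not tested.

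RPL39L and RPL10L are copies used in spermatogenesis, whose parents RPL39 and RPL10 are X-linked in mammals. Rat Rpl39l was at 1646 FPKM in testis. In the other columns it was at most 1.35 and was listed at 0 in male heart, both kidneys and male liver. The RPL39 rows went the other way, at 53.4 in testis, 183 to 190.3 in brain and 485 or more in the other columns. In testis Rpl39l was the highest of all 129 rat member rows. Marmoset RPL39L had no such pattern: it was at 2.69 in testis and between 0.530 and 4.56 elsewhere, and passed in no somatic comparison.

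Rat Rpl10l was at 16.9 FPKM in testis, 4.34 and 2.53 in heart, 0.614 and 4.61 in liver and 0.353 or less in brain and kidney. Only 3 somatic libraries reached 1 FPKM, both hearts and the female liver, which was the highest of them. The row would thus not have passed the filter without its heart values. Among somatic tissues it was called higher in heart alone, and the difference of 1.41 is given as a description. The call was lost without the male heart, the female brain or the female kidney. Rpl10, on chromosome 1 in this annotation, was at 29.5 in testis against 105 to 694 elsewhere. Rpl10l made up 36.3% of the pair in testis and at most 0.823% in any other column. Reads of a copy and its parent can be confused where they are near-identical, so the low somatic values of Rpl10l are uncertain.

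The other paralogues kept a share in every rat tissue. Rpl22l1 made up 61.2% of its pair with Rpl22, an RNA-binding large subunit protein, in male heart, its highest share. The share was lowest in ovary, with Rpl22l1 at 19.7 FPKM and Rpl22 at 89.5. Rps27l made up between 33.9% (female heart) and 78.1% (testis) of its pair with Rps27. The 2 animals differed in these shares within a tissue, as for Rps27l in liver, where they were 39.7% in the male and 61.4% in the female. In wallaby RPL22L1 exceeded RPL22 in liver (702 against 348 FPKM) and testis (171 against 49.2), at 66.8% and 77.7% of the pair. Wallaby RPS27L was the minor member at 22.1% and 25.3%.

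Rpl7l1 works in the assembly of the large subunit rather than as a plain copy of Rpl7. In rat it kept between 2.07 and 8.06 FPKM across all columns, while Rpl7 ranged from 45.1 in female brain to 515 in male liver. Rpl7l1 passed in none of the 4 somatic comparisons. Rpl7 was lower in brain (-2.34, adjusted p = 0.000319) and higher in liver (1.39, adjusted p = 0.00380). The marmoset member row RPL7L1 was listed at 0 in every library but testis (0.138) and was not tested.

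**Figure D3:**
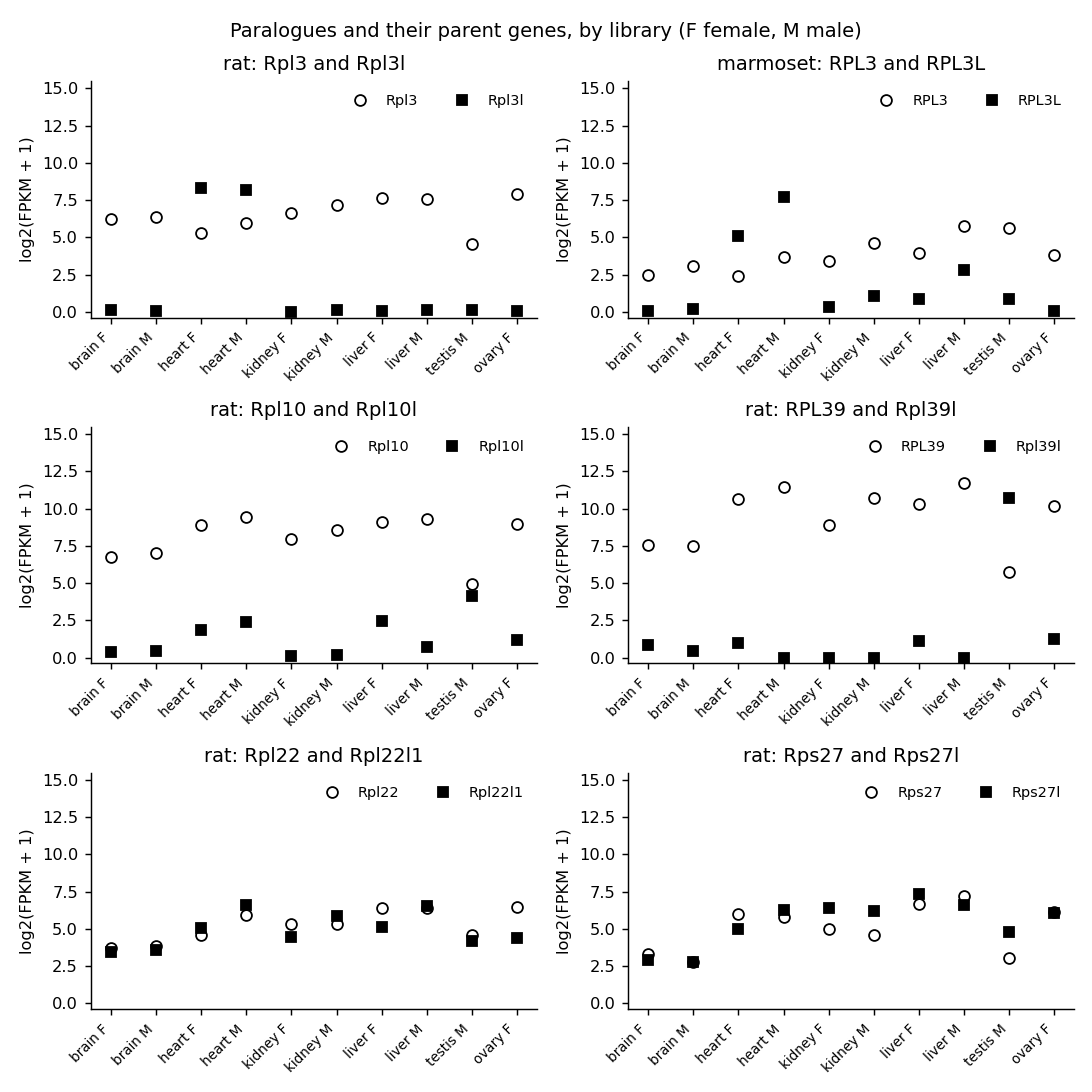
log2(FPKM + 1) on the y axis of 5 rat pairs and 1 marmoset pair, for each library column on the x axis, with open circles for the parent gene and black squares for the paralogue. Among the rat columns Rpl3l exceeds Rpl3 in the 2 heart columns (290.5 and 311 FPKM) and Rpl39l exceeds RPL39 in testis (1646 FPKM), while Rpl22l1 and Rps27l lie near their parents in most columns.

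In marmoset 6 of the 7 members passed the filter. RPL11, a large subunit protein that also binds MDM2 when ribosome assembly fails, stood at 22.8 (male) and 24.6 (female) FPKM in brain, 98.5 and 89.6 in heart, 89.4 and 89.3 in kidney and 153 and 129 in liver. RPS20 stood at 3.89 and 3.28 in brain, 20.9 and 7.48 in heart, 22.1 and 13.2 in kidney and 32.1 and 14.4 in liver. For both genes brain lay below every other somatic library, and for RPL11 liver lay above.

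In marmoset brain 4 of 6 members were lower, where 40.2% of all 15100 tested rows were, among them RPL3L (-2.85, SE 0.48, adjusted p = 0.00220), RPL11 (-2.11, SE 0.18, adjusted p = 0.000126) and RPS20 (-1.95, SE 0.26, adjusted p = 0.000783). None was higher, where 24.1% of all rows were. RPL3L was at 213 and 32.8 FPKM in heart and at most 6.07 in the other somatic libraries. Its lower calls in brain and kidney thus largely restate its heart values.

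The marmoset brain values lay below every heart, kidney and liver library for 4 of 6, against 20.5% of all rows. In liver 4 of 6 were higher, where 30.2% of all rows were, among them RPL11 (1.24), RPS20 (1.12) and RPS29 (1.08). RPS29 passed the filter only through its 2 liver libraries, so its difference is a description. None was lower, where 28.1% of all rows were. Without either liver library RPS29 did not pass the filter, which left 5 members tested. Without the male liver fewer of these were called higher, and so were fewer of all rows. In heart only RPL3L was higher, where 19.7% of all rows were, and none was lower, where 30.1% were. In kidney none was higher, where 18.5% of all rows were, and only RPL3L was lower (-2.12, adjusted p = 0.0148), where 16.9% of all rows were. The kidney call was lost without the animal block (adjusted p = 0.124) and without either kidney library (adjusted p = 0.0551 and 0.165). The RPS20 call in liver was lost without the male liver (adjusted p = 0.105). RPS29 was between 0.173 and 3.30 FPKM in all columns, unlike the high RPS29 rows of rat. The 43 rows named through the table were all lower in brain (median -2.13), and 34 of them were higher in liver (median 1.26).

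**Figure D4:**
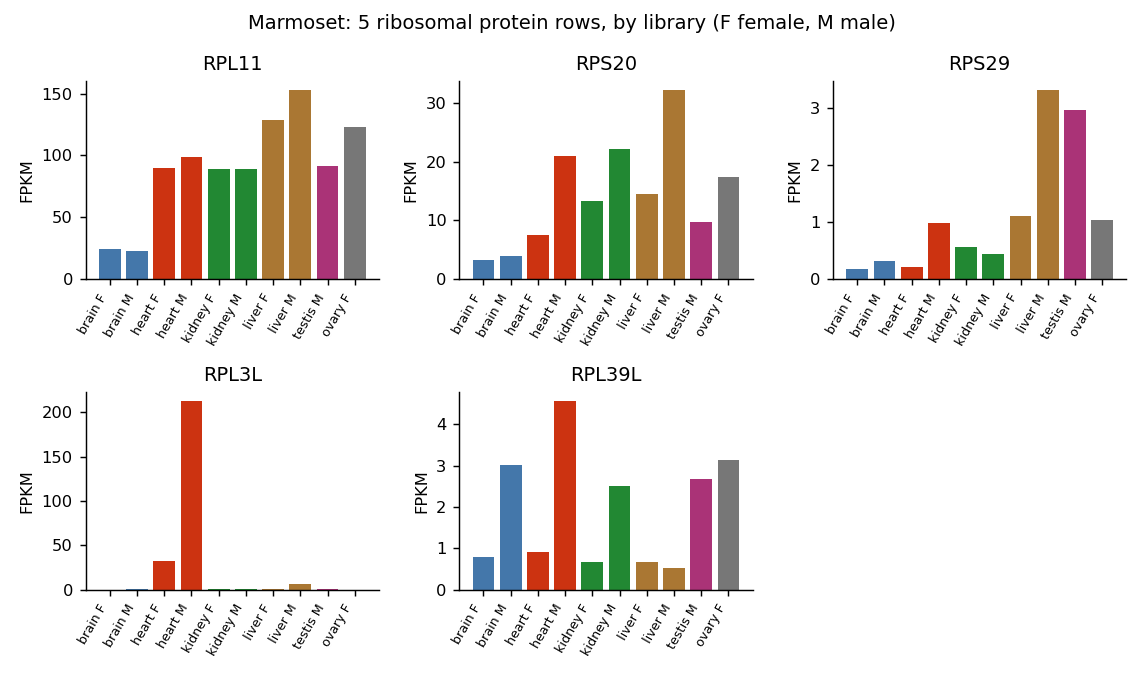
FPKM (bars, from 0, each panel with its own scale) of 5 tested marmoset members on the y axis, for each library column on the x axis, coloured by tissue. RPL11 and RPS20 are lowest in both brain columns, and RPL3L is highest in the 2 heart columns (213 and 32.8 FPKM).

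Testis and ovary had 1 column each, so a row was called only where its log2(FPKM + 1) lay at least 1 beyond every somatic library, with no p. In rat testis 2 of 128 members were higher, Rpl39l and Rpl10l, where 18.5% of all 17208 rows were. Another 12 rows of 7 symbols were lower, where 5.68% of all rows were. They were the 5 RPL39 rows, RPL36A, Rps4x, Rpl10, both Rpl26 rows, the first Rpl9 row and the first Rps3 row. The members' median difference from the somatic mean was -1.02, against -0.28 for all rows.

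Of the 7 symbols low in rat testis, RPL39, RPL36A, RPS4X and RPL10 belong to genes that are X-linked in mammals, although these rows were annotated on autosomes. RPL36A was at 29.5 FPKM in testis against 112 to 1726 elsewhere. Rps4x, a small subunit protein, was at 47.7 in testis against 192 to 1494 elsewhere. Rps4y2, an autosomal row here and no member, was at 46.3 in testis and at most 9.40 elsewhere. Rpl26, which binds near the exit tunnel, was at 86.9 and 31.5 in its 2 rows against 243 to 1448 and 95.5 to 639. With brain left out of the somatic libraries, 38 rows were lower in testis (11.0% of all rows) and the same number as before, 2, were higher (22.2%).

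In rat ovary no member lay 1 beyond every somatic library in either direction, where 2.42% of all rows were higher and 0.336% lower. Among the largest differences above the somatic mean were Rpl3 (1.31) and Rpl22 (1.30). Farthest below were Rpl3l (-2.05), Rpl22l1 (-0.72) and the third RPL37 row (-0.39). In marmoset testis no member passed either way (9.46% of all rows higher, 2.86% lower), with RPS29 farthest above (1.21) and RPL3L farthest below (-1.42). RPL11 was at 91.2 FPKM in marmoset testis and 123 in ovary, within its somatic range. Marmoset ovary likewise had none (2.42% higher, 0.832% lower).

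Wallaby offers 1 male liver and 1 male testis, so the comparison has no replicate check. The median member was at 1044 FPKM in liver and 136 in testis. The FPKM of all rows summed to 1757220 in liver and 453380 in testis, so the 2 columns are not on an equal total. As a share of that sum the members took 3.88% in liver and 2.68% in testis, a smaller difference than that of the medians. The highest in liver were RPS24 (4521), RPLP2 (4437) and RPS27 (4413). The lowest were RPL3L, listed at 0 in liver and at 0.195 in testis, RPS18 (44.0) and RPL35 (213). Of 51 members with at least 1 FPKM in either library, 50 were lower in testis by at least 1 on the log2 scale, where 48.6% of all 11467 rows were. None was higher, where 23.2% of all rows were. At any size, 51 of 51 members and 65.5% of all rows were lower.

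The wallaby median was -2.67 for members and -0.93 for all rows. With each library centred on its median row, 44 of 51 members were still lower (32.1% of all rows), with a median of -1.82. The largest differences were in RPLP2 (-4.25), from 4437 to 232 FPKM, RPS21 (-3.84) and RPL23A (-3.76), a large subunit protein at the exit tunnel. The exception was RPLP0, at 534 in liver and 428 in testis (-0.32). RPS7, from 2231 to 1113, and RPL31 (-1.30) were next.

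The male testis and liver of rat and marmoset allow the same subtraction. In rat, 123 of 126 members were lower in testis than in liver (50.2% of all rows), with a median of -2.25. In marmoset 5 of 6 were lower (53.9% of all rows), with a median of -0.94. The summed FPKM of male liver exceeded that of testis in both species too. As a share of it, rat members took 3.62% in male liver and 2.58% in testis. The marmoset members took 0.0136% and 0.0345%, the other way round. Across the 51 symbols shared by rat and wallaby, 49 were lower in testis in both species, with medians of -2.26 in rat and -2.67 in wallaby. With at least 1 FPKM in testis or liver of each species, these were 49 of 49 members, against 45.4% of all 8138 shared symbols. DDX4, a germ cell marker, was at 87.1 FPKM in rat testis, 53.0 in wallaby and 29.8 in marmoset. The part of germ cells in these differences was not tested.

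**Figure D5:**
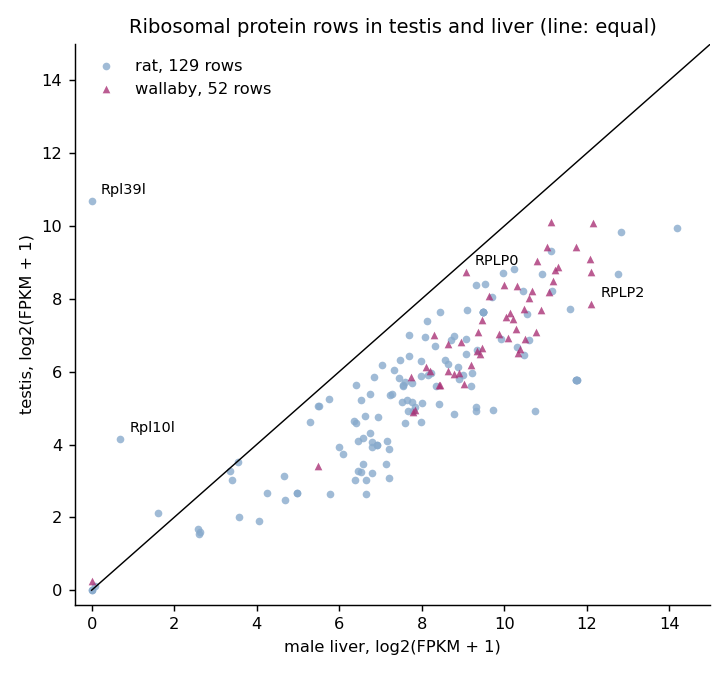
log2(FPKM + 1) in testis (y axis) against male liver (x axis) for the 129 rat rows (circles) and 52 wallaby rows (triangles), with a line where both are equal. Of the 51 shared symbols, 49 are lower in testis in both species, and rat Rpl39l and Rpl10l lie above the line.

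The female and male rat differed across the members. The female value was the lower one in all 4 somatic tissues for 78 of 126 rows, where 18% of all rows were. The median female minus male difference of the members was -0.22 in brain, -0.70 in heart, -0.69 in kidney and -0.61 in liver. In marmoset 2 of 6 members were lower in the female in all 4 tissues, where 37.2% of all rows were, and so were 39 of the 43 rows named through the table. With 1 animal of each sex these values compare 2 animals.

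Other genes of the translation machinery were taken from 6 fixed lists, to be read against the shares of all rows given above (39.1% lower and 24.6% higher in rat brain, 28.6% higher and 33.4% lower in rat liver). In rat brain all 5 tested rows of ribosomal fusion and ribosome-bound genes were lower (median -1.71), among them Gnb2l1, the RACK1 scaffold of the small subunit (-1.84). Of 8 elongation factors and related proteins 5 were lower in brain and 1 higher. The higher one was Eef1a2, the form of neurons and muscle, which was also higher in heart (4.25 and 4.91), while its ubiquitous counterpart Eef1a1 was lower in both (-1.07 and -1.55) and higher in liver (1.74). Of 11 other terminal oligopyrimidine genes 6 were lower in brain, such as the growth-linked Tpt1 (-2.29), and 2 were higher.

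Of 35 rows of ribosome assembly factors 12 were lower and 1 higher in rat brain (median -0.39), and 15 were higher and 1 lower in liver (median 0.53). Of 7 genes of RNA polymerase I and its transcription factors, which make ribosomal RNA, 0 were lower in brain and 1 was higher (median -0.06). In liver 2 of these were lower and 0 higher (median 0.24). Of 12 regulators of growth and of ribosomal protein mRNA 5 were lower in brain (median -0.32). In brain the counts of assembly factors and regulators lay near the share of all rows. So did the count of RNA polymerase I genes lower in liver, and nothing is read from these counts. Myc, a transcription factor that drives ribosome production, was lower in brain (-1.12) and higher in liver (1.84), whereas Larp1 and Mtor passed in none of the 4 tissues. In marmoset brain both tested fusion and ribosome-bound genes and 9 of 10 other terminal oligopyrimidine genes were lower, and so were 8 of 24 assembly factors, where 40.2% of all rows were.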

How the data were processed

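Polyadenylated RNA was sequenced, and the authors deposited gene tables in FPKM for marmoset, rat and wallaby, made with TopHat 1.4.0 and Cufflinks 2.0.0 per the submitters' processing notes. Genome build, gene annotation and normalization settings: not given in the sources used here. Marmoset libraries were strand-specific per the labels' protocols; for rat and wallaby this was not stated, so reads of antisense genes cannot be told apart there. Of the columns, 22 were used and 8 held no values. The depth is unknown, so no counting interval is given.

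Rows with at least 1 FPKM in at least 2 somatic libraries were taken to log2(FPKM + 1), a scale that understates the change of low genes. Each tissue was compared with the mean of the other 3 by limma 3.58.1 in R 4.3.3 (lmFit and eBayes with a trend, 8 columns a species, 3 residual degrees of freedom), with Benjamini-Hochberg adjustment over all rows and an adjusted p under 0.05 for a call. The animal was a block, since the labels give the same individual for the tissues of a sex. Testis and ovary, with 1 column, were called by a log2 difference of at least 1 beyond every somatic library. The fit was tested on simulated data, with rows moved in liver. It recovered 11% of changes of 1 on the log2 scale in rat and 26% in marmoset, and 68% and 79% of changes of 2. Unchanged rows made up 4.82% of the calls in rat and 4.55% in marmoset. A row that did not pass therefore cannot be read as unchanged.

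Named genes were the paralogues and their parents, the stalk proteins, RPSA and RPS27A, the 3 largest rises and falls of each comparison, and the extremes of level and of range between tissues. Others, such as the rows that did not pass or that passed without brain, were named after their values were seen. Some results that the rule would name are not reported here. The members and the lists of markers and of translation genes were chosen with earlier results of these data known. Alternatives were another pseudocount, no filter, no block, median centring, a floor on the difference, brain left out and each library left out.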

Additional observations from a re-analysis of the deposited data

How the results depend on the processing

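Counts here are of members called in either direction. The share of all rows called moved with the setting too, so a changed count is not read as a change of the members alone. With a log2 floor of 1, 25.4% of members and 16.7% of all rows were higher in rat heart. The rat brain count (121) lay between 109 and 121 with any 1 library left out, and at 115 with no replicate block. The rat heart count (62) was 29 with no replicate block, 33 with a log2 floor of 1, 14 on heart, kidney and liver only, and 9 to 69 with 1 library left out (9 without the female heart, 12 without the male heart, 36 without the female liver). The rat liver count (103) was 61 with no replicate block, 37 on heart, kidney and liver only, and 33 to 108 with 1 library left out (33 without the male liver, 36 without the female liver). The rat kidney count (1) was 3 with a pseudocount of 0.1, 2 with median-centred libraries, 52 on heart, kidney and liver only, and 0 to 3 with 1 library left out (0 without the female heart, 3 without the female liver, 2 without the male liver).

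With 1 library left out, 5 marmoset members were tested without either liver library and 6 otherwise. The count of calls then moved in brain without the male kidney and in heart without the female liver. It moved in kidney without either kidney library or without the female brain, and in liver without the male liver or the female heart. The share of all rows called moved in these fits too. The marmoset heart count (1) was 2 with no filter, 2 with median-centred libraries and 2 on heart, kidney and liver only. The marmoset kidney count was 0 with no replicate block; no other call count in marmoset moved by over 1.5 times there.

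The rat testis count (14) was 1 with a log2 difference of 2 and 40 against heart, kidney and liver only. The ratio of the share of summed FPKM was 1.87 for rat liver over brain and 1.45 for wallaby liver over testis; the ratio of median member FPKM was 4.53 and 7.68. In a centring chosen after seeing the data, each library was set to its median ribosomal protein row. By construction this removes what the family shares: the rat counts became 26 in brain, 30 in heart, 3 in kidney and 12 in liver, RPS27A in brain turned to 0.0201 and Rpl22l1 in liver to -0.0381. Of all rows 75.5% were then higher and 7.01% lower in brain, and 12.2% and 57.8% in heart. In kidney the shares were 15.8% and 17.4%, and in liver 11.25% and 65.6%. Median centring moved the median of all rows most in wallaby (from -0.93 to -0.08), and in rat testis from -0.28 to -0.48. Of 53 named gene results, none lost its call with a pseudocount of 0.1 or with median-centred libraries. The cause of the other changes was not tested.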
